A study of Mus musculus with 22 samples.

Results

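The subject of this report is the messenger RNA of 10 core cleavage and polyadenylation factors of the mouse: Cpsf1, Cpsf2, Cpsf3, Cpsf4, Cpsf6, Cstf1, Cstf2, Cstf3, Nudt21 and Pcf11. They were chosen by name as members of the 3′ end processing machinery, and all 10 are among the 24421 genes counted in the 22 RNA-seq libraries. Their read counts are described across 6 cell types sorted from the colon crypt, and beside them the use of distal polyadenylation sites is given over all transcripts.

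The libraries came from untreated wild type male C57BL/6N mice aged 5 to 7 weeks. Live epithelial cells (Cd31-, Cd45-, Epcam+) were separated by surface Cd44, Cd24 and Ckit. Stem cells had the highest Cd44 with low Cd24 and no Ckit (n = 3), and absorptive progenitors (AbsPro) had medium to high Cd44 with low Cd24 and no Ckit (n = 3). The secretory progenitor gate, which also takes in deep crypt secretory and goblet cells (SecPDG), had high Cd44 with medium Cd24 and medium Ckit per the labels (n = 4), whereas the study's text gives its Cd44 as medium and finds Ckit protein in tuft cells alone. Tuft cells were Ckit+ with high Cd24 (n = 5). Enterocytes had low or no Cd44 and no Cd24 (n = 5), and enteroendocrine cells (EEC) had low or no Cd44 with Cd24 (n = 2). Per the methods, sorted cells and RNA were pooled where a library needed more. Each Stem and AbsPro library came from 1 mouse, and each library of the other cell types from several mice. Pooling therefore cannot be told apart from cell type in those comparisons with Stem. There is no treatment arm, and the comparisons of the other cell types with Stem all share the same 3 Stem libraries.

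Nearly every mRNA receives its poly(A) tail after the nascent transcript is cut at a poly(A) site. The cleavage and polyadenylation specificity factor (CPSF) reads the AAUAAA signal and carries the endonuclease, the cleavage stimulation factor (CstF) binds GU-rich sequence downstream of the cut, and the cleavage factors CFIm and CFII bind upstream sequence and link the complex to termination. Many genes have several such sites, and the choice between a proximal and a distal site sets the length of the 3′ untranslated region (UTR).

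The libraries held between 4122122 (EEC 1) and 22462518 (Stem 2) read pairs counted on genes. The share of uniquely aligned read pairs that fell outside annotated genes was 40.9% to 49.4% in Stem, AbsPro and SecPDG, 43.4% to 68.0% in Tuft, 66.8% to 83.1% in Enterocyte, and 89.7% and 64.5% in the 2 EEC libraries. Reads on 1514 genes of families that the colon epithelium is not known to transcribe, taken here as a measure of background, came to 12.1 to 146 CPM (counts scaled to a common library total) in Stem, AbsPro and SecPDG, 178 to 1479 CPM in Tuft, 773 to 3902 CPM in Enterocyte, and 7005 and 548 CPM in EEC. The sorted cells carried the markers of their labels, since the summed Stem markers (Lgr5, Axin2, Smoc2, Cd44, Rnf43) were at 1430.4 to 1742 CPM in Stem against 125 to 733 CPM in the other cell types, the Tuft markers at 1818 to 4755 CPM in Tuft, and the EEC markers at 80089 and 107562 CPM in EEC. Markers of other cell types were also present. The absorptive markers (Car1, Car4, Slc26a3, Aqp8) did not separate Enterocyte (3089.8 to 5612 CPM) from AbsPro (3739 to 5720 CPM), and in the EEC libraries they were at 543 and 5522 CPM. The goblet and deep crypt secretory markers were as high in Tuft (46300.2 to 74015 CPM) as in SecPDG (44927 to 103386 CPM), and stood at 16692 to 33101 CPM in Enterocyte against 1209.8 to 1989 CPM in Stem. The part of these other cell types in the factors' differences was not tested. In bulk libraries, fewer cells of a type and less RNA per cell cannot be told apart.

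All 10 factors were detected in every library, and their RNA was highest in the Stem, AbsPro and SecPDG gates and lowest in Enterocyte or EEC. No factor rose against Stem in any cell type. In Enterocyte 8 of the 10 fell against Stem, and in EEC 6 of the 10 fell. In Tuft only Cpsf1 passed the test, and in AbsPro and SecPDG none did, though with counts scaled by library totals Cpsf1 passed in SecPDG (log2 fold change -0.76, edgeR adjusted p = 0.00699). Cpsf1, the largest CPSF subunit, and Cstf2, the CstF subunit that contacts RNA, fell most, while Cstf3 and Pcf11 passed the test in 0 of the 15 pairs of cell types.

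A gene was called where edgeR's quasi-likelihood test gave a Benjamini-Hochberg adjusted p under 0.01 over the 22781 genes tested and its mean was at least 50 normalized counts. The 8 Enterocyte calls stand beside a background of 11.5% of all genes tested called lower in that comparison. Here and below, shares of genes called are over all genes tested. These include genes with a mean under 50 normalized counts, which could not be called. Among genes that could be called, as all 10 factors could, the shares are higher than those given. The background of the 6 EEC calls was 9.14%, and that of the 1 Tuft call was 4.23%. In AbsPro and SecPDG this test called 0 of the 10 and DESeq2's Wald test called 0, beside 0.0922% and 1.6% of all genes called lower by edgeR. In this fit of all libraries 0 were at an unadjusted p under 0.05. With only the 2 cell types fitted, edgeR gave an unadjusted p of 0.0087 for Cpsf6 and 0.0226 for Cstf2 in AbsPro. In SecPDG that fit gave 0.00567 for Cstf2, 0.00933 for Cpsf1 and 0.0218 for Pcf11. The Wald test gave 0.018, 0.0189 and 0.0429 for the same SecPDG factors. All of these were lower than in Stem. The median log2 fold change of the 10 factors was -0.32 in AbsPro, -0.38 in SecPDG, -0.64 in Tuft, -1.24 in Enterocyte and -1.45 in EEC. Over all genes with a mean of at least 50 normalized counts the corresponding medians were 0.04, -0.06, -0.09, -0.30 and -0.30. Every library lay below every Stem library for 4 factors in AbsPro, 2 in SecPDG (Cpsf1 and Cstf2), 6 in Tuft, 8 in Enterocyte and 8 in EEC, and the same held for 6.74%, 9.77%, 10.8%, 15.2% and 20.8% of all genes tested.

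The scaling of the counts bears on these numbers. The values above use edgeR's trimmed mean (TMM) scaling. Scaling by the size factors of DESeq2 instead moved the median over all genes to 0.35 in Enterocyte and 0.48 in EEC, and 4 factors were called in each, beside 6.52% and 5.66% of all genes called lower. Among all genes the TMM fit called 2446 higher and 2614 lower in Enterocyte and 2459 higher and 2082 lower in EEC, where the size factors gave 4589 and 1485, and 4396 and 1289. With library totals the calls were 4156 higher and 1703 lower in Enterocyte, 3450.0 higher and 1968 lower in EEC, and 830.0 higher and 1050.0 lower in SecPDG, where TMM gave 770.0 and 364. Relative to the median of all genes under TMM, the median factor was at -0.94 in Enterocyte and -1.14 in EEC on the log2 scale.

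Enterocyte and EEC, but not Tuft, also had factors called lower than in the progenitors. Against AbsPro, 4 factors fell in Enterocyte and 5 in EEC, beside 16.2% and 18.3% of all genes called in either direction. Against SecPDG, 6 fell in Enterocyte and 5 in EEC, beside 23.4% and 21.3%. Against Tuft, Cstf2 was the 1 factor that fell, in both Enterocyte and EEC, beside 8.44% and 9.29%. The edgeR test called 0 of the 10 between SecPDG and AbsPro, Tuft and AbsPro, Tuft and SecPDG, and EEC and Enterocyte, with 0, 2, 1 and 0 at an unadjusted p under 0.05, beside 3.72%, 8.13%, 3.36% and 4.71% of all genes. No other tool was run on these pairs. Counted in either direction against Stem, the share of all genes called was 0.588% for AbsPro, 4.98% for SecPDG, 12.1% for Tuft, 22.2% for Enterocyte and 19.9% for EEC.

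**Figure D1:**
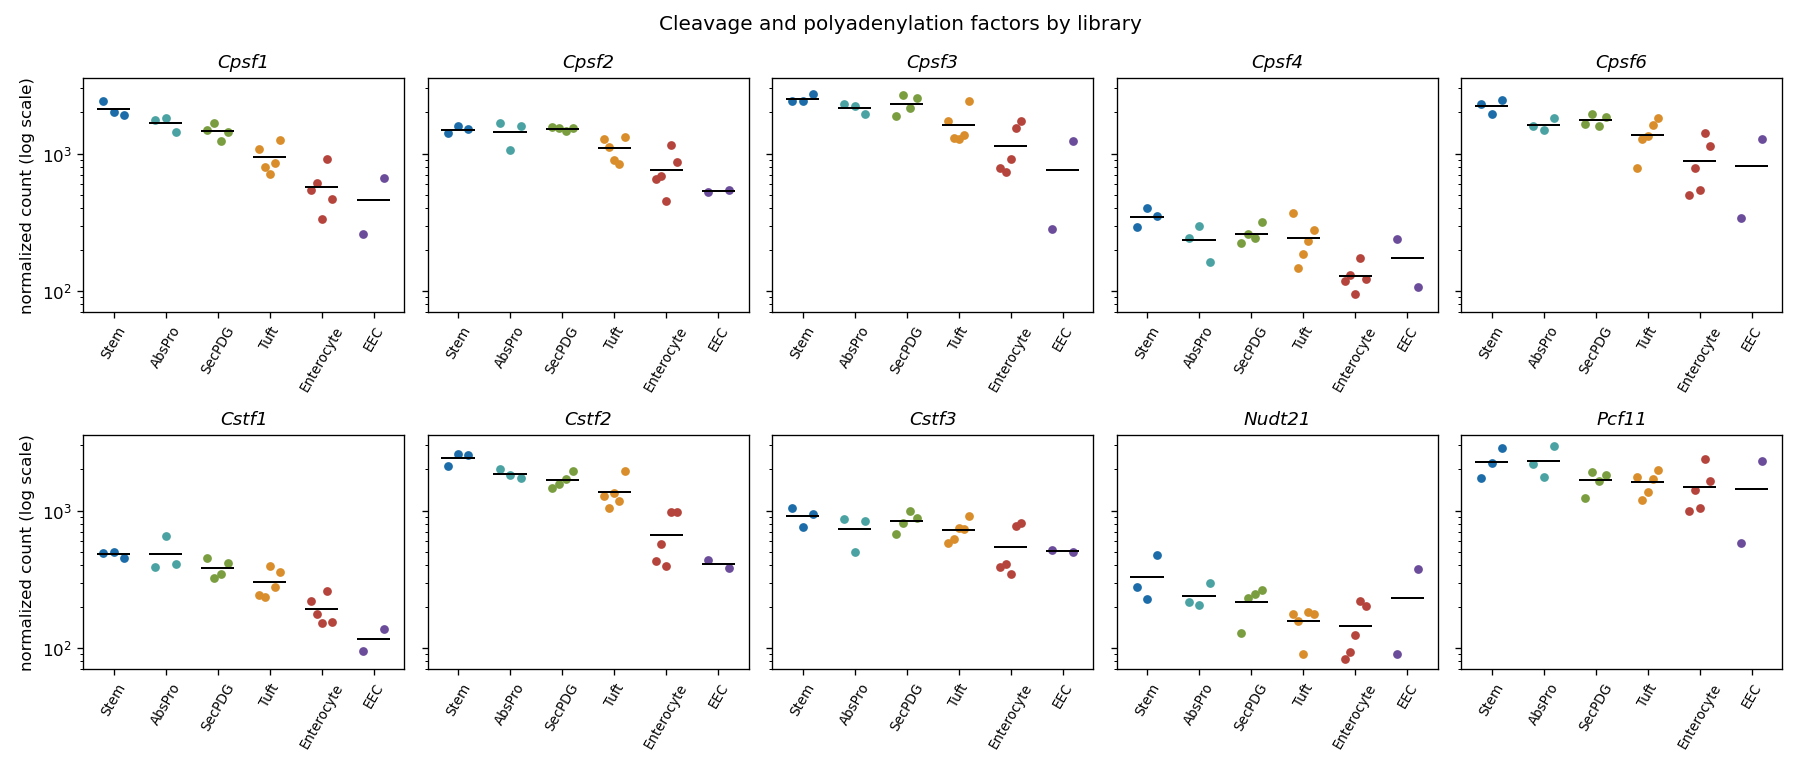
Normalized counts (log axis) of the 10 factors in each of the 22 libraries, with 1 point per library and a bar at the mean of each cell type. Points fall from Stem on the left to Enterocyte and EEC on the right for Cpsf1 and Cstf2, and overlap between cell types for Pcf11.

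The background reads moved with these levels. Summed over the 10 factors, the normalized counts were 14481 to 16285 in Stem, 7939 to 9310.4 in Tuft 1 to 4 and 12534 in Tuft 5, the Tuft library with the fewest background reads. In Enterocyte the sum was 4403 to 5641 in libraries 1 to 3, where 3077 to 3902 CPM fell on the silent families, and 9837 and 8150.3 in libraries 4 and 5, where 773 and 1321 CPM did. EEC 1 had a sum of 3379 and EEC 2 of 7557. In each of these 3 cell types, the libraries of low background lay above all the others for 7 of the 10 factors. The share of all genes in that order was not counted, so the 7 cannot be set against it. In EEC the order rests on 1 library against 1. Without Enterocyte 1 to 3 and EEC 1, an alternative chosen after the data were seen, 2 factors were called lower in Enterocyte (Cpsf1 and Cstf2, beside 3.8% of all genes called lower) and 3 in EEC (Cpsf1, Cpsf2 and Cstf2, beside 6.38%). Only EEC 2 is then left in its group and is assumed to vary like the other cell types. Background was estimated from the silent families per kilobase. Pooled over libraries, it made up 0.04% (Cpsf3) to 0.32% (Nudt21) of a factor's reads in Stem. In Enterocyte it made up 2.11% (Cpsf3) to 16.7% (Nudt21), and in EEC 2.34% (Pcf11) to 14.0% (Cstf1). Single libraries went higher, with 10.4% (Cpsf2) to 56.9% (Nudt21) in EEC 1 and 39.8% for Nudt21 in Enterocyte 1. In EEC 2 it was 0.55% (Pcf11) to 5.42% (Cpsf4). Taking that estimate off left 8 and 6 calls in Enterocyte and EEC, beside 13.3% and 12% of all genes called lower. The part of the background in the differences beyond these values was not tested.

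**Figure D2:**
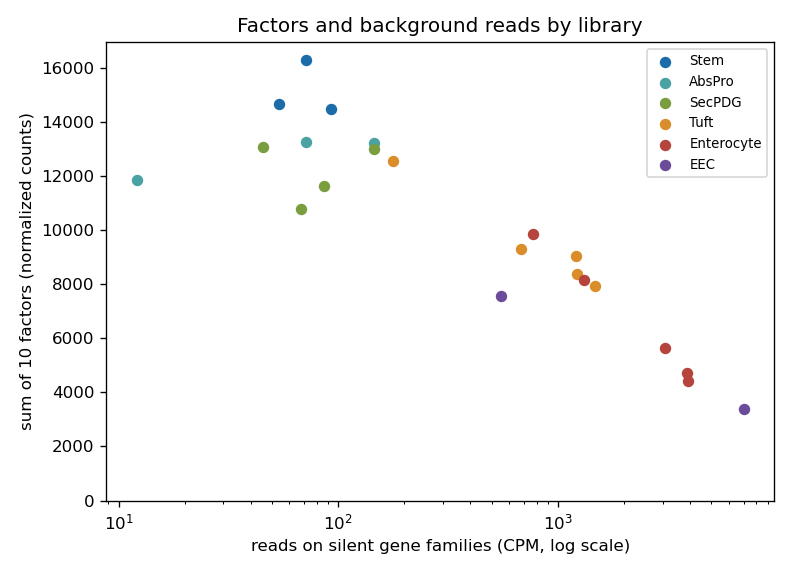
Sum of the normalized counts of the 10 factors (vertical axis) against reads on silent gene families in CPM (horizontal log axis), with 1 point per library. The 3 Stem libraries lie highest, at 53.8 to 93.1 CPM, and EEC 1 lies lowest, at 7005 CPM.

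CPSF supplies 4 of the members. Cpsf1 (chr15:76595803-76607591, minus strand, mm10) encodes its scaffold subunit. Its normalized counts were 2413, 2020.3 and 1916 in Stem, 1755, 1827 and 1445 in AbsPro, and 1501, 1678, 1233 and 1439 in SecPDG. In Tuft they were 1077, 805, 713, 857 and 1264, in Enterocyte 543, 609, 335, 923 and 469, and in EEC 260.3 and 667. Every library outside Stem lay below every Stem library, and the Enterocyte and EEC libraries lay below all those of AbsPro and SecPDG. Cpsf1 fell 2.23-fold in Tuft (log2 fold change -1.16, SE 0.29, edgeR adjusted p = 0.00211). It fell 3.66-fold in Enterocyte (-1.87, SE 0.30, edgeR adjusted p = 1.68e-06) and 4.40-fold in EEC (-2.14, SE 0.42, edgeR adjusted p = 4.92e-05). The Enterocyte and EEC calls held under all 11 other settings and without any 1 library, with an EEC value of -3.02 when EEC 2 was left out. The Tuft call held under all 10 other settings but was lost without Stem 1 (edgeR adjusted p = 0.0163). The other settings counted here and for the factors below include dropping the minimum mean and loosening the adjusted p to 0.05. Both reuse the main fit, so no call could be lost under them.

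Cpsf3 (chr12:21285391-21315056, plus strand), the endonuclease that makes the cut, had the highest level per kilobase of the 10 in Stem, at 476 ± 34.9 normalized counts per kb (SD, n = 3). Its normalized counts were 2407 to 2728 in Stem. Those of AbsPro ran from 1964 to 2301, those of SecPDG from 1874 to 2672 and those of Tuft from 1275 to 2437. In Enterocyte they were 792, 739, 909, 1550.0 and 1741, and in EEC 282 and 1247. All 7 of these libraries lay below the Stem range, with the low background libraries of each cell type above the rest. The log2 fold change was -1.13 (SE 0.32, edgeR adjusted p = 0.00248) in Enterocyte and -1.66 (SE 0.44, edgeR adjusted p = 0.00174) in EEC. The EEC value was -1.17 without EEC 1, where the call was lost (edgeR adjusted p = 0.0192), and -3.16 without EEC 2. The Enterocyte call was lost under 3 of 11 other settings, among them leaving out the 4 libraries of most background reads (-0.51), and without Enterocyte 2 (-1.01, edgeR adjusted p = 0.0111).

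Cpsf2 (chr12:101975988-102006424, plus strand) encodes the inactive relative of that endonuclease. It had 1419, 1584 and 1506 normalized counts in Stem and 1461 to 1558 in SecPDG, where the ranges overlapped. In Enterocyte it had 654, 689, 453, 1155 and 867, and in EEC 530 and 541. Estimated background was 10.4% of the Cpsf2 reads in EEC 1 and 1.71% in EEC 2. It fell in Enterocyte (-0.98, SE 0.28, edgeR adjusted p = 0.00347) and in EEC (-1.49, SE 0.40, edgeR adjusted p = 0.00194). The Enterocyte call was lost under 5 of 11 other settings, with -0.47 by size factors and -0.46 without the 4 libraries of most background reads, and also without Enterocyte 2 (-0.94) or Enterocyte 3 (-0.83). The EEC call was lost under 3 of 11, with -0.79 by size factors.

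Cpsf4 (chr5:145167213-145182041, plus strand), a zinc finger subunit that takes part in reading the AAUAAA signal, was among the lower factors, at 97.0 ± 15.7 normalized counts per kb in Stem (SD, n = 3). Its normalized counts were 291, 405 and 351 in Stem, 95.9 to 173 in Enterocyte, and 239 and 107 in EEC. Here EEC 1, the library of high background, was the higher of the pair. Cpsf4 fell in Enterocyte (-1.44, SE 0.36, edgeR adjusted p = 0.000885), a call lost under 4 of 11 other settings, with -0.91 by size factors and -1.12 without the 4 libraries of most background reads. Its EEC value of -1.10 (SE 0.48) did not pass the test (edgeR adjusted p = 0.0561).

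**Figure D3:**
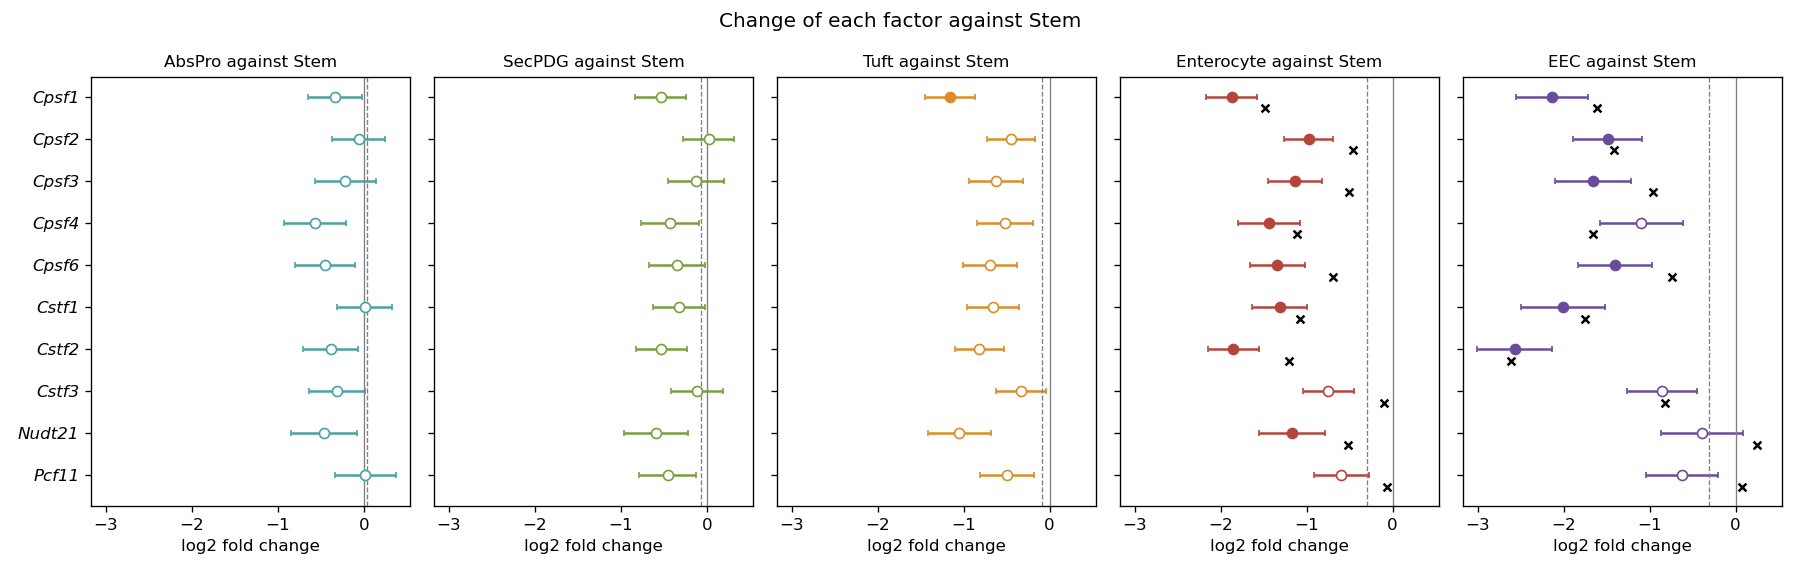
Log2 fold change of each factor against Stem (horizontal axis) in 5 comparisons, with bars of 1 SE. Filled points passed the test, the dashed line is the median of all genes with a mean of at least 50 normalized counts, and crosses give the value without Enterocyte 1 to 3 and EEC 1.

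CstF is a complex of 3 proteins. Cstf2 (chrX:134059187-134086819, plus strand) encodes the subunit whose RNA recognition motif binds downstream of the cut. It had 2127, 2575 and 2557 normalized counts in Stem, 2023, 1812 and 1725 in AbsPro, and 1466, 1575, 1711 and 1965 in SecPDG. In Tuft it had 1290.1, 1051, 1352, 1188 and 1946, in Enterocyte 427, 577, 393, 977 and 979, and in EEC 441 and 382. The Enterocyte and EEC libraries all lay below every Tuft library. Estimated background was 20.0% of the Cstf2 reads in EEC 1 and 3.87% in EEC 2. Cstf2 fell 3.61-fold in Enterocyte (-1.85, SE 0.29, edgeR adjusted p = 1.77e-06) and 5.92-fold in EEC (-2.57, SE 0.44, edgeR adjusted p = 4.56e-06), and both calls held under all 11 other settings. Its Tuft value of -0.82 (SE 0.28) did not pass (edgeR adjusted p = 0.0242). With the cell types in order of their means, the step of Cstf2 from Tuft to Enterocyte was the only one of the 50 neighbouring steps of the 10 factors that passed the test (edgeR adjusted p = 0.00514).

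Cstf1 (chr2:172370681-172382448, plus strand), the WD repeat subunit, had 491, 501 and 451 normalized counts in Stem and 388, 653 and 413 in AbsPro. In Enterocyte it had 221, 177, 152, 262 and 155, and in EEC 95.8 and 137, all below the Stem range. It fell in Enterocyte (-1.31, SE 0.32, edgeR adjusted p = 0.00067) and in EEC (-2.01, SE 0.49, edgeR adjusted p = 0.000675). The Enterocyte call was lost under 4 of 11 other settings, with -0.78 by size factors and -1.08 without the 4 libraries of most background reads, and the EEC call under 2 of 11.

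Cstf3 (chr2:104590523-104665429, plus strand) encodes the scaffold that joins the other two. It had 1039.6, 760.5 and 955 normalized counts in Stem, 870.3, 500.2 and 841 in AbsPro, and 681 to 993 in SecPDG. Its counts were 582 to 922 in Tuft, 386, 409.6, 345, 780.1 and 816 in Enterocyte, and 517 and 499 in EEC. The Enterocyte libraries of low background lay inside the Stem range, and the EEC libraries lay below it. No pair of cell types passed the edgeR test, with 3 of 15 pairs at an unadjusted p under 0.05, and the log2 fold change was -0.75 (SE 0.30, edgeR adjusted p = 0.0273) in Enterocyte and -0.85 (SE 0.40, edgeR adjusted p = 0.0727) in EEC. DESeq2's Wald test against Stem did not call it either. In Enterocyte it was called with the replicate block (-1.02) and without Stem 2 (-1.04), Stem 3 (-0.94), Enterocyte 1 (-0.86) or Enterocyte 4 (-0.92), and its value was -0.10 without the 4 libraries of most background reads.

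CFIm is built from Nudt21, which binds UGUA motifs, and Cpsf6 or Cpsf7. Cpsf6 (chr10:117344673-117380015, minus strand) had 2296, 1934 and 2463 normalized counts in Stem, 782 to 1835 in Tuft, 501, 788, 541, 1423 and 1142 in Enterocyte, and 339.9 and 1289.8 in EEC. The range of every group but SecPDG lay below that of Stem. Cpsf6 fell in Enterocyte (-1.34, SE 0.32, edgeR adjusted p = 0.000539) and in EEC (-1.40, SE 0.43, edgeR adjusted p = 0.00633). The EEC call was lost under 4 of 11 other settings, without Stem 1 (-1.38, edgeR adjusted p = 0.0138) and without EEC 1 (-0.95, edgeR adjusted p = 0.0622), and the value was -2.72 without EEC 2. The Enterocyte call was lost under 1 of 11, without the 4 libraries of most background reads (-0.69).

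Nudt21 (chr8:94015496-94037031, minus strand) was the lowest factor per kilobase in Stem, at 61.3 ± 25.0 normalized counts per kb (SD, n = 3). It had 276, 228 and 479.7 normalized counts in Stem, 177, 156, 91.0, 184 and 177 in Tuft, 83.4, 94.1, 124, 221 and 204 in Enterocyte, and 90.4 and 376 in EEC. The Stem and EEC ranges overlapped. Nudt21 fell in Enterocyte (-1.17, SE 0.38, edgeR adjusted p = 0.008), a call lost under 6 of 11 other settings and without Stem 1, Stem 3, Enterocyte 2 or Enterocyte 3 (-0.99 to -1.27). Its EEC value of -0.39 (SE 0.48, edgeR adjusted p = 0.516) turned to 0.20 with DESeq2's size factors and to 0.25 without the 4 libraries of most background reads.

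Pcf11 (chr7:92643543-92669934, minus strand), the CFII subunit that binds the tail of RNA polymerase II and takes part in termination, had 1721, 2232 and 2878 normalized counts in Stem and 2203, 1760 and 2964 in AbsPro. In Enterocyte it had 1001, 1426, 1055 and 1655 in libraries 1, 2, 3 and 5 and 2371 in library 4, and in EEC 584 and 2310.2. The ranges overlapped that of Stem in all of these cell types. The edgeR test passed in 0 of 15 pairs of cell types, with 0 at an unadjusted p under 0.05, and DESeq2's Wald test did not call Pcf11 against Stem. The value in Enterocyte was -0.60 (SE 0.32, edgeR adjusted p = 0.0962). That in EEC was -0.62, and it passed without EEC 2 (-1.97, edgeR adjusted p = 0.00157).

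Across the 22 libraries the 10 factors moved together to different degrees. Over the 45 pairs of factors, Pearson's r of log2 CPM ran from 0.30 to 0.92 with a median of 0.73, a description of libraries that share depth and background. Among 13085 other genes with a mean of at least 50 normalized counts, those most like the mean of the factors were Sf3b2 (r = 0.98), Hnrnpu, Nsun2, Hsp90ab1 and Srsf6.

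The rest of the pathway was counted in the same fit, where 4.23% of all genes were called lower in Tuft, 11.5% in Enterocyte and 9.14% in EEC. Of 14 other core factors, 5 fell in Enterocyte, among them the scaffold protein Sympk (-1.38, SE 0.31, edgeR adjusted p = 0.000305), the poly(A) binding protein Pabpn1 (-1.30, SE 0.30, edgeR adjusted p = 0.000486) and the Cpsf6 relative Cpsf7 (-1.15, SE 0.31, edgeR adjusted p = 0.0016). In EEC the edgeR test called 0 of these 14, with 4 lower and 1 higher at an unadjusted p under 0.05. Of 5 genes of histone mRNA 3′ ends, the stem-loop binding protein Slbp fell in Enterocyte (-1.15) and in EEC (-2.35). Of 20 regulators of site choice and termination, 2 fell in Tuft, 12 in Enterocyte and 6 in EEC, with the splicing factor Srsf7 in all 3 (-1.27, -1.84 and -2.13). Of 12 Integrator subunits, which cut small nuclear RNAs and paused transcripts, 9 fell in Enterocyte and 2 in EEC, with Ints7 in both (-1.55 and -1.52). The counts of 1 of 5 histone genes and of 2 of 12 Integrator genes rest on too few genes to be read as above the background. The lists' medians in Enterocyte were -0.77, -0.78, -1.05 and -1.12, in that order, against -1.24 for the 10 factors. Of 11 genes of dividing cells, 8 fell in Tuft, 11 in Enterocyte and 11 in EEC, with medians of -1.43, -3.14 and -3.67. Summed immune markers were 11.4 to 14.4 CPM in Stem, 90.5 to 260.4 CPM in Tuft, 23.8 to 91.6 CPM in Enterocyte, and 35.6 and 221 CPM in EEC. Stromal markers were at 2.41 to 13.4 CPM in Stem, 6.22 to 44.99 CPM in Tuft, 27.8 to 142 CPM in Enterocyte, and 18.0 and 278 CPM in EEC. Endothelial markers were at 5.16 to 10.8 CPM in Stem, 13.2 to 54.5 CPM in Tuft, 31.4 to 139.7 CPM in Enterocyte, and 81.8 and 249 CPM in EEC. The part of dividing, immune, stromal and endothelial cells in the factors' differences was not tested.

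Use of distal sites was read from the DaPars tables, which give for each transcript and library the share of its 3′ UTR coverage that runs to the distal site. A table lists the Stem libraries beside 1 other cell type, and the places of libraries in it cannot be tied to the library numbers used above. The median distal share over all transcripts was 0.30, 0.34 and 0.36 in Stem and 0.35, 0.29 and 0.38 in AbsPro (difference of means 0.0067, exact permutation p = 0.9). In SecPDG it was 0.27, 0.375, 0.34 and 0.37 against 0.31, 0.35 and 0.355 in Stem over the transcripts of that comparison. The difference was 0.00042 (exact permutation p = 1). The ranges of these groups overlapped that of Stem.

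In Tuft the median distal share was 0.30, 0.36, 0.36, 0.37 and 0.35 against 0.30, 0.33 and 0.34 in Stem, a difference of 0.025 (exact permutation p = 0.25). Over the 475 transcripts with a value in every library of all 5 tables, the difference was 0.044 (exact permutation p = 0.0179), and there every Tuft library lay above every Stem library. In Enterocyte the shares were 0.33, 0.35, 0.26, 0.33 and 0.27 against 0.29, 0.32 and 0.32 in Stem (difference -0.002, exact permutation p = 1). EEC had 0.12 and 0.23 against 0.27, 0.31 and 0.32 in Stem, a difference of -0.12 with an exact permutation p of 0.1, the smallest that 3 against 2 libraries allow. Both EEC libraries lay below Stem. They had values for 771 and 1238 transcripts, against 1293 to 1320 in Stem, so these medians cover different transcripts. Over the 475 common transcripts the shares were 0.14 and 0.23 in EEC against 0.24, 0.26 and 0.25 in Stem. There the second EEC library lay close to Stem. All these permutation tests were two-sided. Over the 5 comparisons of all transcripts the lowest adjusted p was 0.5, and the Tuft test over common transcripts was not part of that adjustment.

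**Figure D4:**
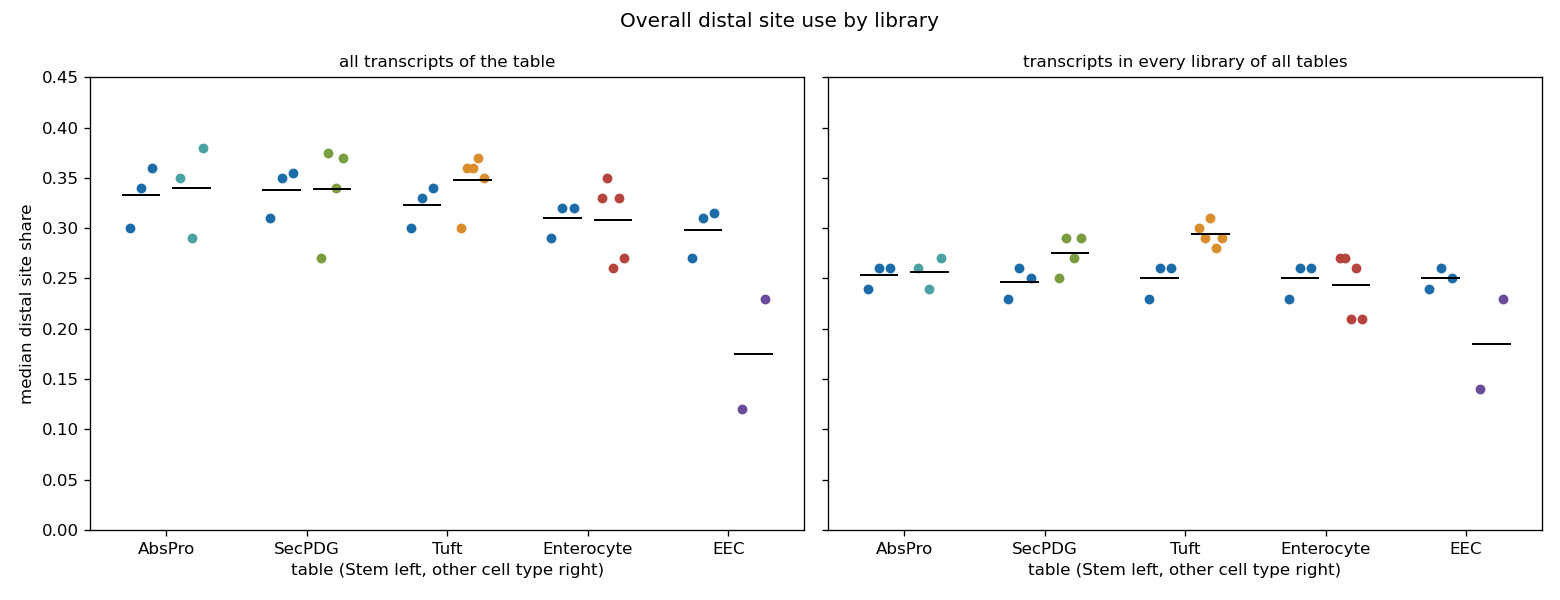
Median distal site share per library (vertical axis) in the 5 tables, with the Stem libraries left and the other cell type right in each and bars at the group means. The left panel takes all transcripts of a table and the right panel the 475 found in every library of all tables, where the 5 Tuft points lie above the 3 Stem points.

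Transcript by transcript, limma called 1 of 4223 in SecPDG, 2 of 3257 in Tuft and 1 of 2449 in Enterocyte at an adjusted p under 0.05. It called 0 of 4976 in AbsPro and 0 of 735 in EEC, with 196 and 101 at an unadjusted p under 0.05. In simulated tables with the spread of the real ones, a log2 shift of 2 in the odds of the distal site was recovered in 0% of changed transcripts for AbsPro, 12.5% for SecPDG, 19.5% for Tuft, 42% for Enterocyte and 6.5% for EEC. Differences of that size were therefore mostly not detectable here.

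The factors' own transcripts were among those listed, 9 from 7 factors in the AbsPro table and 1 in the EEC table. The limma test called 0 of them in the AbsPro, SecPDG, Tuft and Enterocyte tables, beside 0.0%, 0.0237%, 0.0614% and 0.0408% of all transcripts in that order, and 1 was at an unadjusted p under 0.05. The 1 EEC transcript, of Cpsf6, had a value in only 1 EEC library and was not tested. The transcript at an unadjusted p under 0.05 was a short form of Cstf3 in Tuft, where 169 of all 3257 transcripts tested were under 0.05. It ends at position 104609429 of chr2, far upstream of the full-length end, and Cstf3 is known for short transcripts that end within introns. The last 30 bases of 3 annotated Cstf3 transcripts are shown to describe where they end, with the poly(A) signal in capitals (GENCODE M21, mm10, plus strand).
Cstf3-201, full length, chr2:104665400-104665429: aaaggAATAAAaggacctcaaaaacatgcc
Cstf3-202, annotated as retained intron, chr2:104611377-104611406: gaaAATAAAgctttgttaatacgttgttgt
Cstf3-206, annotated as retained intron, chr2:104609400-104609429: tgcaacaacATTAAAacagtttcaatggtg
All 3 ends hold AATAAA or its variant ATTAAA on the transcript strand. Over 58797 protein-coding transcripts, 35.5% held AATAAA and 9.74% held ATTAAA in their last 30 bases. A match is a description of the sequence and not evidence that the site is used.

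For the short form that ends where Cstf3-206 does, DaPars put the proximal site at 104609110 in the Tuft comparison, just past an intron described below. Another listed form of Cstf3 has its region from 104609091 to 104611406. Coverage of that form and removal of the intron can enter the share, which is therefore not a measure of site choice alone. The distal share was 0.57, 0.46, 0.31, 0.62 and 0.29 in Tuft against 0.03, 0.14 and 0.38 in Stem. The Tuft values covered a range that overlapped the highest Stem library, and the difference did not pass (limma adjusted p = 0.854, unadjusted p = 0.0387). It was 0.28, 0.33, 0.26, 0.26 and 0.29 in Enterocyte and 0.45, 0.30, 0.20 and 0.25 in SecPDG. The Enterocyte values lay inside the Stem range, and 1 SecPDG library lay above it (limma adjusted p = 0.635 and 0.847). In AbsPro the share was 0.53, 0.10 and 0.30 against 0.03, 0.14 and 0.39 in Stem, and these ranges overlapped (limma adjusted p = 0.929).

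The splicing tables touch the same place. MAJIQ gives 1 pooled share per cell type with no replicates, and its tables list only variations past the authors' threshold, so these values are a description. A 118-base intron of Cstf3 (chr2:104608973-104609090), which lies inside the last exon of that short form, was retained with a share of 0.37 to 0.377 in Stem. The authors' pooled share was 0.001 in AbsPro, 0.001 in SecPDG, 0.126 in Tuft, 0.002 in Enterocyte and 0.006 in EEC. Stem thus had the highest pooled share in every table, and Tuft the next. A 72-base intron of Cpsf1 (chr15:76600610-76600681) had a pooled share of 0.259 in AbsPro and 0.002 in Stem and was listed for AbsPro only.

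**Figure D5:**
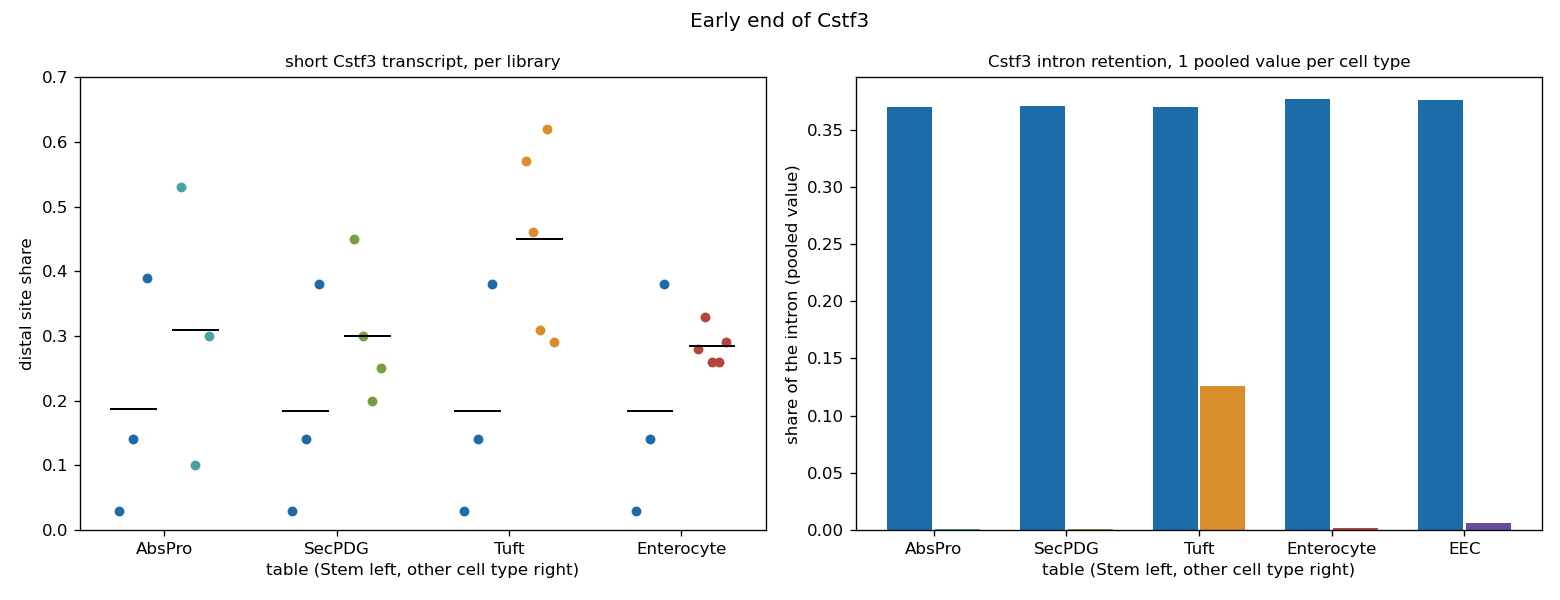
Left, distal site share of the short Cstf3 transcript per library in 4 tables, with bars at the group means. Right, the authors' pooled share of the 118-base Cstf3 intron in 5 tables, with Stem left at 0.37 to 0.377 in each and the other cell type right.

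Skipped exons of the factors were listed in few tables. The designed edgeR test of inclusion against skipping counts recovered 0% of simulated shifts, so it could not call a change, and the reads are given with no test. An exon of Cpsf3 (178 bases, chr12:21295030-21295207) had 649 inclusion and 0 skipping reads over the Stem libraries against 417 and 7 in AbsPro. An exon of Cpsf1 (75 bases, chr15:76601263-76601337) had 50 and 0 in Stem against 38 and 3 in Enterocyte. A second Cpsf3 exon in Tuft and 1 Cstf3 exon in Enterocyte each had 1 skipping read. Skipping of these exons was rare or absent in the reads counted.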

How the data were processed

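RNA from sorted mouse colon cells was sequenced as read pairs in 22 libraries. The authors aligned reads with STAR 2.5.2a to mm10, used SAMtools 1.3 and counted with HTSeq 0.6.1p1 without strand, so the deposited counts are raw read pairs per gene and reads of overlapping genes on opposite strands cannot be told apart. Per the methods, the authors ran DaPars, rMATS and MAJIQ on Stem against 1 other cell type at a time. The deposited DaPars tables give the distal share as a fraction from 0 to 1. Their columns carry the letters A and B, read here as Stem and the other cell type in the order of each comparison, since A holds 3 libraries throughout. Their 68 columns of coverage were not used here. The rMATS tables hold read counts, and the MAJIQ tables hold pooled shares. The authors' fold changes and p-values were not used. Count files of SecPDG and Tuft carry a different form of name from the rest, which cannot be told apart from cell type.

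Counts of all 22 libraries were fitted together in edgeR 4.0.16 (R 4.3.3) with filterByExpr, TMM scaling and cell type as the only term. Normalized counts are counts over TMM-scaled library size. The study's thresholds were kept. edgeR offers 2 quasi-likelihood fits. Both were run on these data, and the current one was made the main fit after calls from the legacy one had been seen, because it matched earlier processing of the series. It gave 1, 8 and 6 calls in Tuft, Enterocyte and EEC where the legacy fit gave 1, 6 and 5. Of the 22781 genes tested, the current fit called 964, 2614 and 2082 lower in these comparisons, and the legacy fit 462, 1806 and 1697. Distal shares were tested with limma 3.58.1 on log2 odds with a pseudocount of 0.01, for transcripts with a value in at least 2 libraries of each cell type, and library medians with the exact permutation test over libraries. DESeq2 1.42.0 served as an alternative. The scripts were tested on simulated data. The designed test of skipped exons recovered 0% of changed events there, and a weighted limma form tried in its place recovered 1.5% to 5.5% with 5.85% to 15.6% of unchanged events at p under 0.05, so neither was used. All 10 factors were named in every comparison. Other genes of a list were named where called, up to 3 per list and comparison. The members and lists were chosen with earlier results of these data known.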

Additional observations from a re-analysis of the deposited data

Results flagged for a closer look

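Among the 33 groups of 4 or 5 libraries checked for a value far from the others, 1 stood apart. The first Tuft library of the distal site table had a median distal share of 0.3, with the other 4 between 0.35 and 0.37, and its gap was 0.714 of the range where the limit is 0.71. Chance gives about 1 such value in 20 groups. Without that library the difference of Tuft from Stem was 0.0367 (exact permutation p = 0.0286). It was left out for its low value, and the other 4 all lay above Stem. The p is therefore the smallest this test allows and lends no weight to the difference. Over the 475 common transcripts the same library was at 0.30, with the others between 0.28 and 0.31, so there it did not stand apart.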

How the results depend on the processing

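EEC had 2 libraries, and the background reads, the scaling and the test all moved counts of calls. Members called in SecPDG were 1 with library totals. Tuft calls were 3 at an adjusted p under 0.05, 2 with library totals, 2 with only the 2 cell types fitted and 2 with DESeq2's Wald test. Enterocyte calls were 4 with DESeq2 size factors, 4 with library totals, 3 with the Wald test and 2 without the 4 libraries of most background reads. EEC calls were 2 with only the 2 cell types and 3 without those 4 libraries. Genes called lower moved too. Library totals gave 1050 of 22781 in SecPDG, 1334 in Tuft and 1703 in Enterocyte. Size factors gave 1485 in Enterocyte. The Wald test gave 971 of 23674 in Tuft and 1398 in Enterocyte. Only the 2 cell types gave 1660 of 19231 in Tuft and 517 of 17736 in EEC. An adjusted p under 0.05 gave 1892 of 22781 in Tuft. Tuft had 669 of 22695 without Stem 1 and 1309 of 22700 without Tuft 5. Enterocyte had 1989 of 22711 without Enterocyte 2. Over all its fits without 1 library the count ran from 1884 of 22702 (without Enterocyte 3) to 3316 of 22704 (without Enterocyte 1). The causes were not tested. Leaving out 1 library gave 0 to 0 calls in AbsPro and SecPDG, 0 to 2 in Tuft (0 without Stem 1, 2 without Tuft 5) and 5 to 9 in Enterocyte (5 without Enterocyte 2). In EEC, leaving out 1 of its 2 libraries leaves a lone library, so no range of counts is given.

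Library numbers showed no general pairing of the samples. Over 44 same-numbered pairs the correlation of deviations was -0.39 to 0.50 with a median of 0.002, and 14 of them were above 0.1. The libraries that correlated best with their own number were 6 of 22. These values cannot exclude that some same-numbered libraries share a mouse or a sort. With the replicate block the calls were 4 in Tuft, 9 in Enterocyte and 6 in EEC. Beside them, 1866, 3608 and 2353 of 22781 genes were called lower.

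The mean distal share of SecPDG was -0.00097 from Stem, and the Tuft difference over common transcripts was 0.044. Leaving out 1 library gave differences of -0.0133 to 0.0317 for AbsPro, -0.0138 to 0.0233 for SecPDG, 0.013 to 0.0367 for Tuft, -0.0125 to 0.01 for Enterocyte and -0.178 to -0.0683 for EEC. Transcripts called were 0 in SecPDG with the share itself, and 0 in Tuft and 0 in Enterocyte with a pseudocount of 0.05, with the share itself and at an adjusted p under 0.01. Without 1 library they were 0 to 3 for AbsPro, 1 to 5 for SecPDG, 0 to 6 for both Tuft and Enterocyte, and 0 to 177 for EEC, where 44 were called without the first and 177 without the second EEC library and the lone one is assumed to vary like Stem.

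Some log2 fold changes of factors that passed no test changed sign. Cstf1 in AbsPro was -0.050 with library totals, -0.041 without the filter and -0.0081 with only the 2 cell types. Pcf11 in AbsPro was -0.0045 with size factors, -0.051 with library totals, -0.048 without the filter, -0.020 with only the 2 cell types and -0.0019 with the Wald test. Cpsf2 in SecPDG was -0.20 with library totals and -0.036 with the block. Nudt21 in EEC was 0.20 with size factors, 0.053 with the Wald test and 0.25 without the 4 libraries, where Pcf11 was 0.076. Leaving out 1 library gave -0.16 to 0.12 for Cpsf2, -0.27 to 0.21 for Cstf1 and -0.15 to 0.20 for Pcf11 in AbsPro, -0.019 to 0.13 for Cpsf2 in SecPDG and -1.86 to 0.042 for Nudt21 in EEC. Of the other values of single factors, 461 kept direction and side of the threshold under other settings, 34 lost and 11 gained the call. Without 1 library, 315 kept both, 11 lost and 6 gained the call.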
